A study of Homo sapiens with 6 samples.

Results

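H3K27ac, a histone H3 tail carrying an acetyl group on lysine 27, was compared between the NC and PKM2-KD libraries of MDA-MB-231 cells. MDA-MB-231 is an established line of triple-negative breast cancer. Both were profiled by CUT&Tag, in which an antibody guides the Tn5 transposase to a chromatin mark so that the DNA beside it is cut out and sequenced. The comparison used H3K27ac regions at least 226 bp wide on chromosomes 1 to 22, of which NC had 65291 and PKM2-KD 76175. Together these are 141466 of the 999395 regions that the 6 lists of the series hold. The NC cells carry the label WT, and the knockdown cells differ from them in the label by PKM2 knockdown. The study's methods describe both shRNA and siRNA against PKM2 and do not say which was used for CUT&Tag, nor whether the cells were 1 clone. There was 1 library per group, so no difference below has a replicate check, no p-value is given, and the values describe these libraries. The lists hold no expression values, so the knockdown itself was not checked.

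H3K27ac marks active promoters and enhancers, where acetylation loosens the hold of the histone tail on DNA and is read by proteins with a bromodomain. It is written mainly by the acetyltransferases p300 and CBP and removed by histone deacetylases. PKM2 is the pyruvate kinase isoform that many tumours use in glycolysis. It has also been described in the nucleus, where phosphorylation of threonine 11 of the same histone tail has been attributed to it. The comparison addresses where H3K27ac lay along the genome with and without PKM2.

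Several promoters in which the lists differed are shown as examples, chosen among the genes named below after their values were seen. Each line below holds the 250 bases before a transcript start of the gene, as RefSeq gives it (build GRCh38.p14), read 5′ to 3′ on the strand of the gene. For KAT5 and MSANTD1 this start lies inside the gene, so that the window also covers the first bases of the gene. Capitals mark matches to GGGCGG, the letters bound by SP and KLF factors, or to CACGTG, an E-box, on either strand. The first 4 genes, of those named below, had no NC region of any width over these bases and a PKM2-KD region over at least 215 of them. KAT5 encodes TIP60, the acetyltransferase the study followed. The last pair had an NC region there and no PKM2-KD region at least 226 bp wide. Whether narrower PKM2-KD regions lay over these bases was not checked.
SRRM2: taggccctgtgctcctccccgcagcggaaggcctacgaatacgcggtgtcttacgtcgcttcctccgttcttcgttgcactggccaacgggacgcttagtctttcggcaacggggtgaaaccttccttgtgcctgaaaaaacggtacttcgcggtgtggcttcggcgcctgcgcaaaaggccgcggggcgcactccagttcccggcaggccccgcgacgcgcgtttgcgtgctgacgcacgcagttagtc
CAPN15: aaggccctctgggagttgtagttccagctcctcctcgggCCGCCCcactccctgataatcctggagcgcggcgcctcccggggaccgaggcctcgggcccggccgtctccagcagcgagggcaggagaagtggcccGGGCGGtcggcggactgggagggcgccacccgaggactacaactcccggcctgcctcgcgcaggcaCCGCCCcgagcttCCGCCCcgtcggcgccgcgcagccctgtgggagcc
COL13A1: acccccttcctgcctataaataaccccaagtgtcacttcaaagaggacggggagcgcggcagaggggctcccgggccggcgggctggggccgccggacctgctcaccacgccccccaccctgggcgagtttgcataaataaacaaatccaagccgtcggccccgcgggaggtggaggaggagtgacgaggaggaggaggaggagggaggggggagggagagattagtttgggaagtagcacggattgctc
FAM20C: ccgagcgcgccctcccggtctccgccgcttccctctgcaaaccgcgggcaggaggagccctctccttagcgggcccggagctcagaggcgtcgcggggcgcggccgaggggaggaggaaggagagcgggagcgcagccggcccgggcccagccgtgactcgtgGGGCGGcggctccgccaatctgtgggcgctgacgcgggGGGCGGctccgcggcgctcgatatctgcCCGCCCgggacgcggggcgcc
KAT5: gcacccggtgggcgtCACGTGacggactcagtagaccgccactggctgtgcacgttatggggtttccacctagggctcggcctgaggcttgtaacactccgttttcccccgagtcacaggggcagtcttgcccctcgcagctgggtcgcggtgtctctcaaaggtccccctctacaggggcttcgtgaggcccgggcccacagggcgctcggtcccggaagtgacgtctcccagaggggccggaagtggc
NBEA: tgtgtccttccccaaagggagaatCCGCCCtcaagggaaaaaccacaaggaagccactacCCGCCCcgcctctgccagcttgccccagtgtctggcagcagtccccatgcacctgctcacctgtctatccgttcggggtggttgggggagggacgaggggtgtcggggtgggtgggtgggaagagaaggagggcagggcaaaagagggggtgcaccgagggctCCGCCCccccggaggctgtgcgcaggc
MSANTD1: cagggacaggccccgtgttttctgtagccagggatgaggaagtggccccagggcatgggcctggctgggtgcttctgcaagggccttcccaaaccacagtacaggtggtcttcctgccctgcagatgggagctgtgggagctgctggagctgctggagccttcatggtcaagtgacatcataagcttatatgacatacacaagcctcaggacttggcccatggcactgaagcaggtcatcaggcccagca

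The SRRM2 window (chr16:2752388-2752637, plus strand) lay inside a PKM2-KD region of chr16:2751406-2752861, with a fold enrichment of 13.4. CAPN15 (chr16:527462-527711) was covered by chr16:526751-527766 at a fold of 13.2, and COL13A1 (chr10:69801656-69801905) by chr10:69801045-69802150 at 11.4. At FAM20C (chr7:192321-192570) the region chr7:191657-192535, with a fold of 6.51, covered 215 of the 250 bases. These windows held between 63.2% and 78.4% G and C. At KAT5 (chr11:65712002-65712251) both lists had a region. The NC region, chr11:65711782-65712038, reached 37 bases into the window at a fold of 6.68, and the PKM2-KD region, chr11:65711927-65712446, covered all 250 at 11.4. At NBEA (chr13:34942020-34942269) an NC region with a fold of 5.05 covered 196 bases, and at MSANTD1 (chr4:3244119-3244368) one with a fold of 5.78 covered 177. Fold is the authors' value for the summit, relative to the local background, and depends on how each list was made.

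GGGCGG was matched 4 times in the CAPN15 window, 3 times in FAM20C and 3 times in NBEA, and CACGTG 1 time in KAT5. No match to these, to TGANTCA (the AP-1 motif) or to GGAATG (the TEAD motif) was found at SRRM2, COL13A1 and MSANTD1. Over the 300 bases around the start of 15100 genes, GGGCGG was present in 58.9%, GGAATG in 11.7%, CACGTG in 8.77% and TGANTCA in 5.7%. The matches describe letters in these windows and not binding.

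The lists were not made alike, and this bears on every value. In NC, 79.1% of all 556239 regions had the narrowest width of the list, 112 bp, against 1.19% of 208488 at 113 bp in PKM2-KD. The limit of 226 bp, which is 2 times the wider of these, left 11.7% of NC and 36.5% of PKM2-KD regions, holding 34.7% and 67.6% of the acetylated bp. Depth recovered from the lists was near equal, at 7.46 fragments per kb in NC and 7.47 in PKM2-KD. The NC pileup had to be multiplied by 0.521 for its p-values to be recovered, and that of PKM2-KD by 1. Differences in how regions were called and in the knockdown therefore cannot be told apart. Values are given below as shares of the acetylated bp of each list, so that the total drops out.

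The regions of PKM2-KD were more numerous, wider and longer in sum under the width limit. They covered 42 Mb, against 30.7 Mb in NC, which is 136.7% of the NC length. Without the limit the order was the opposite, at 70.1%. The median width was 368 bp in PKM2-KD and 332 bp in NC. Regions of 1 kb or more held 34.4% of acetylated bp in PKM2-KD and 25.6% in NC. The direction of the total length thus depended on the width limit.

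Wide regions were found again in the other list, and narrow ones less so. Of NC regions 226 to 500 bp wide, 32.1% overlapped a PKM2-KD region of the comparison, and of those 1000 to 2000 bp wide 99.6% did. In the other direction these shares were 20.5% and 89.4%. When regions of every width in the other list were counted, the shares at 226 to 500 bp were 41.4% for NC and 44.4% for PKM2-KD regions. Part of the low overlap of narrow regions thus came from the width limit. In all, 45.6% of NC regions and 37.8% of PKM2-KD regions overlapped, which is 55.9% of the NC length and 40.9% of the PKM2-KD length. At 23503 places 1 region of each list met only 1 of the other. There the median width was 450 bp in NC and 612 bp in PKM2-KD, and the PKM2-KD region was the wider at 69.4%.

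The widest regions were also shared. The widest in PKM2-KD spanned 40106 bp at chr19:36269121-36309226, with no protein-coding gene within 5 kb, and NC regions covered 38483 bp of it. The widest in NC, 12040 bp at chr19:36296937-36308976, lay inside it. Among the widest NC regions was one of 7230 bp at AXL (chr19:41219938-41227167), a receptor tyrosine kinase of mesenchymal tumour cells, which PKM2-KD covered in full. These were chosen for their width after the values were seen.

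For each of 19122 protein-coding genes, the acetylated bp within the gene and 5 kb on each side were summed. The sum was given as bp per Mb of the list (the share). The flank can take in the start of a neighbouring gene, so the same region can count for several genes. A gene was compared when the mean of both lists reached 1000 bp. In all, 7495 genes were compared, 8114 had acetylated bp under this minimum and 3513 had 0 in both lists. A share at least 2-fold higher or lower, with 5 bp per Mb added to each, was called. PKM2-KD had a higher share at 942 genes (12.6% of those compared) and a lower one at 370 (4.94%). The median log2 ratio was 0.08, with quartiles of -0.32 and 0.55. Across genes the shares of both lists were related with Spearman's rho of 0.64, and across 1 Mb bins with 0.93. These describe genes and bins of 2 libraries and not replicates.

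Genes near the threshold were many. Just inside it, at log2 ratios of 1 to 1.1, lay 161 genes, and just outside, at 0.9 to 1, 153. On the lower side the counts were 79 and 109. Calls were also commoner where little was acetylated. In the fifth of genes with the lowest mean share 27.6% were called, and in the fifth with the highest 5.54%.

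**Figure D1:**
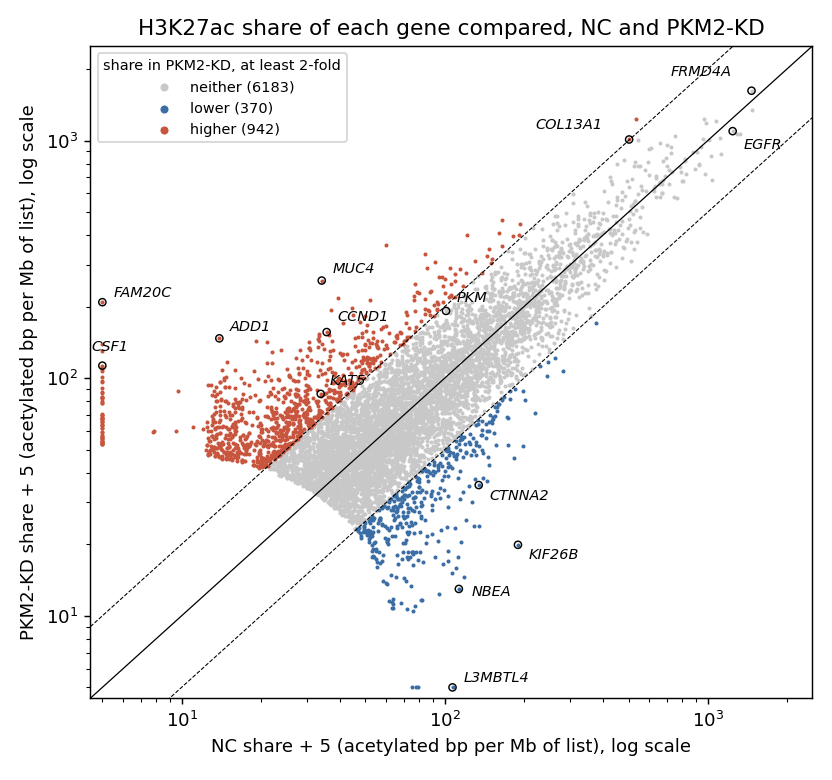
H3K27ac share of 7495 genes in NC (x axis) and PKM2-KD (y axis), as acetylated bp per Mb of the list with 5 added, on log scales, 1 point per gene and 1 library per axis. The solid line marks equal shares and the dashed lines a 2-fold difference. Red points (942) were higher and blue points (370) lower in PKM2-KD, and genes of high share such as FRMD4A and EGFR lie close to the solid line.

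The genes with the most H3K27ac held similar shares in both lists. EGFR, the epidermal growth factor receptor that MDA-MB-231 cells express strongly, had 37998 acetylated bp in NC and 45739 in PKM2-KD, or shares of 1238 and 1090 bp per Mb (log2 ratio -0.18). FRMD4A, a scaffold protein of epithelial polarity, had the highest mean share, with 1461 and 1615 bp per Mb. EXT1, which extends heparan sulfate chains, had 1473 and 1340, and DST, a cytoskeletal linker, 1318 and 1056. The remaining genes of this group were CELF2, TRIO, MICAL2 and ACTN4. All 8 lay between log2 ratios of -0.32 and 0.35.

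Among genes acetylated in both lists, the highest ratios were at genes with almost no NC signal under the width limit. ADD1, a protein that caps actin and binds it to spectrin, had 274 bp in NC and 5966 bp in PKM2-KD (log2 ratio 3.40). No NC region was centred within 5 kb of ADD1, and 10 PKM2-KD regions were. MUC4, a membrane mucin of epithelial cells, had 894 bp and 10602 bp (2.92). SRRM2, a scaffold of nuclear speckles, had 435 bp and 5783 bp (2.90), in 1 NC region and 11 PKM2-KD regions. With regions of every width these 3 genes had log2 ratios of 1.32, 1.86 and 2.47. The direction was therefore the same, and the size smaller, when narrow regions were counted.

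The other high genes were of mixed function. SLC25A11 (143 and 3495 bp) carries 2-oxoglutarate across the mitochondrial membrane, and SLC22A5 (234 and 3702 bp) takes up carnitine. TSPAN4 (304 and 4702 bp) is a tetraspanin of migrating cells, and CAPN15 (276 and 3822 bp) a calpain protease. AHCYL1, C2CD2L, CAMTA2, TTC34 and JRK completed the 12 loci, with log2 ratios between 2.78 and 3.40 over the group. All 12 had a log2 ratio above 1 with regions of every width as well.

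A further 52 genes compared had 0 acetylated bp in NC under the width limit, and 4 had 0 in PKM2-KD. No fold is given for them. FAM20C, a kinase of secreted proteins, had 0 bp in NC and 8556 bp in PKM2-KD. NFKBIE, an inhibitor of NF-kappaB, had 0 and 5637 bp, and CSF1, the macrophage colony-stimulating factor, 0 and 4529 bp. Narrower NC regions were present at all 3, with 2963, 1485 and 672 bp over regions of every width. PLEKHG4B and RPL13A followed, with 4477 and 4399 bp in PKM2-KD. At 0 in PKM2-KD were L3MBTL4, a reader of methylated histones (3136 bp in NC), CACNA2D2, a calcium channel subunit (2281 bp), LINC02210-CRHR1 (2228 bp) and ASPG (2159 bp). Narrower PKM2-KD regions were present at these 4 genes too, with between 784 and 1715 bp.

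Most of the lowest ratios were at long genes, 10 of the 12 over 100 kb, with CD86 at 65.8 kb and MSANTD1 at 12.3 kb. KIF26B, a kinesin family member, had 5678 bp in 18 NC regions and 625 bp in 2 PKM2-KD regions (log2 ratio -3.26). NBEA, a neuronal protein of membrane traffic, had 3323 and 335 bp (-3.12), and TNS1, a tensin of focal adhesions, 3475 and 404 bp (-3.01). ACACB, the mitochondrial acetyl-CoA carboxylase, had 2181 and 228 bp (-2.87). CD86, a ligand that co-stimulates T cells, had 2054 and 238 bp (-2.75). The other 7 were PPP2R2C, SLC23A2, DTWD2, PIK3AP1, MSANTD1, FSTL5 and SGCD. The 12 spanned log2 ratios of -3.26 to -2.67. With regions of every width KIF26B had a log2 ratio of -1.28, NBEA of -1.59 and TNS1 of -0.93, so that TNS1 was no longer past 2-fold. In the 12 genes the NC signal was spread over 5 to 18 regions, against 1 or 2 in PKM2-KD.

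Gene length moved with the ratio. The median length was 20.9 kb for genes of higher share, 150.6 kb for genes of lower share and 50.6 kb for the rest. Of 2040 genes compared under 20 kb, 22.3% were higher and 24 genes were lower. Of 2214 genes over 100 kb, 4.11% were higher and 10.9% lower. The rank correlation of log2 ratio and length over all genes compared was -0.33. The median number of NC regions was 2 at higher and 6 at lower genes, and that of PKM2-KD regions 5 and 2. Whether this comes from how the lists were called was not tested. With regions of 500 bp or more, 62.2% of the 370 still had a ratio below 0, whereas 95.5% of the 942 higher genes still had one above 0. The remaining genes were not all reversed, as a gene with no region this wide in either list has a ratio of 0. KIF26B was such a gene, with widest regions of 396 bp in NC and 330 bp in PKM2-KD.

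At gene starts the order of the lists depended on the width limit. Under it, a region lay within 500 bp of the start at 33.3% of 15100 genes in NC (95% Wilson interval 32.6 to 34.1) and at 45.6% in PKM2-KD (44.8 to 46.4). Both lists had one at 4539 genes, PKM2-KD alone at 2341 and NC alone at 494. At 1378 of the 2341 starts NC had a narrower region, and at 192 of the 494 PKM2-KD did. With regions of every width the shares were 56.3% in NC (55.5 to 57.1) and 55% in PKM2-KD (54.2 to 55.8), so the higher count in PKM2-KD was not seen there. The intervals cover counting error only, and neighbouring genes can share a region. Bases within 1 kb of a start held 13.6% of the acetylated bp in PKM2-KD and 11% in NC. For every width together these were 10.2% and 5.05%.

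The shape of the signal around starts was alike. At the start itself 21% of bases were acetylated in NC and 31.2% in PKM2-KD, and 8 to 10 kb away 1.49% and 2.42%. The start was thus 14.1 times the surroundings in NC and 12.9 times in PKM2-KD. With regions of every width the order of these ratios was the opposite, at 6.7 and 9.9. The peak was 1.2 kb wide at the middle of its height in NC and 1.4 kb in PKM2-KD.

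**Figure D2:**
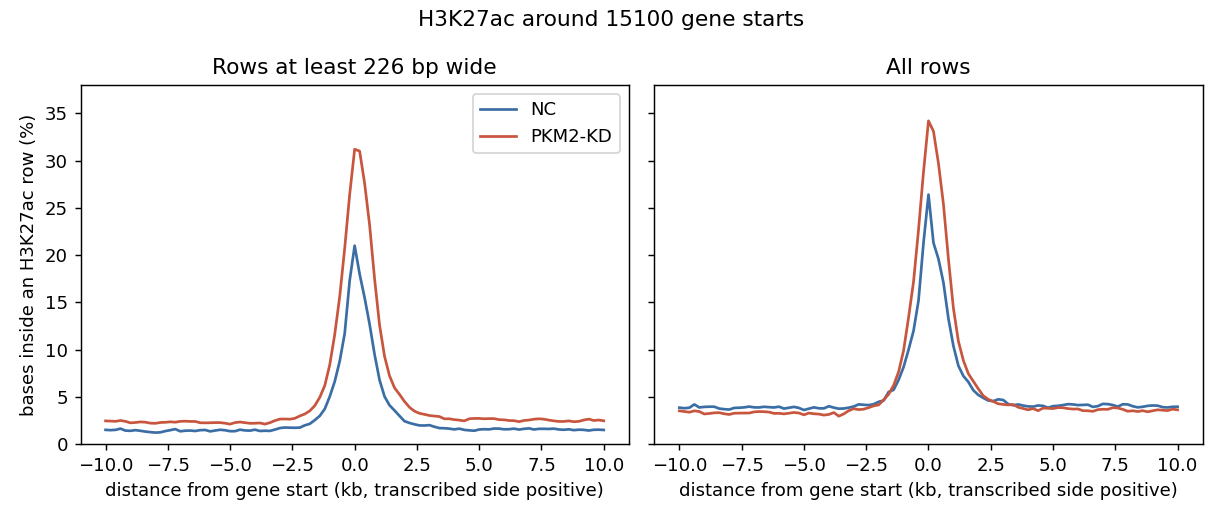
Percent of bases inside an H3K27ac region (y axis) by distance from the start of 15100 genes in kb (x axis, transcribed side positive), for NC in blue and PKM2-KD in red, in steps of 0.2 kb. With regions at least 226 bp wide (left) PKM2-KD lies above NC throughout, and with all regions (right) PKM2-KD lies above NC at the start, 34.2% against 26.4%, and below it 8 to 10 kb away, 3.45% against 3.94%.

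Promoters poorest in G and C carried the mark least often in both lists. Under 45% G and C, 8.64% of starts had a region in NC (7.4 to 10.1) and 9.98% in PKM2-KD (8.65 to 11.5). Between 65% and 75% the shares were 40.9% (39.5 to 42.4) and 55.6% (54.2 to 57.1). At 75% or more they were lower again, at 33.1% (31 to 35.2) and 47% (44.8 to 49.2). When every width was counted, NC had the larger share under 45% G and C, 27.5% against 15.2%, and the shares between 65% and 75% were 63.3% in NC and 65.7% in PKM2-KD. GGGCGG was found in 71.1% of 768 promoters of higher genes (67.8 to 74.2), 60.9% of 299 of lower genes (55.2 to 66.2) and 67.4% of 5085 of the rest (66.1 to 68.7). For GGGCGG the interval of the rest overlapped both others, and those of higher and lower genes did not overlap. Median G and C was 67% at promoters of higher genes, 63.3% at lower genes and 65% at the rest. The AP-1, TEAD and E-box motifs had overlapping intervals in the 3 groups. Higher genes had a region at the start at 36.2% in NC and 71.6% in PKM2-KD, and lower genes at 43.1% and 38.5%. This follows in part from the call, which counts the same regions.

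KAT5 had a higher share in PKM2-KD. In the gene (chr11:65712018-65719604) and 5 kb on each side lay 884 acetylated bp in 3 NC regions and 3397 bp in 6 PKM2-KD regions. These are shares of 28.8 and 80.9 bp per Mb and a log2 ratio of 1.35. The widest PKM2-KD region, chr11:65719600-65720899 (1300 bp), lay almost wholly in the flank past the end of the gene. With regions of every width the ratio was 1.87, and with regions counted in place of bp it was 0.72. Of the 12 histone acetyltransferase genes listed, 5 were compared. KAT5 and KAT2A (624 and 2011 bp, 1.06) were higher (40%, against 12.6% of all genes) and 0 were lower. Of the 5, 3 were under 20 kb, where 22.3% of all genes were higher. KAT2A encodes GCN5. Its direction was not stable, with -0.76 for regions of 500 bp or more and -0.06 at equal list lengths. KAT8, NCOA3 and KAT6B lay between 0.78 and -0.67. Of those under the minimum, KAT2B (1312 and 353 bp), CREBBP, which encodes CBP (600 and 300 bp), and NCOA1 (528 and 234 bp) had fewer bp in PKM2-KD. EP300 (568 and 1162 bp), KAT6A (243 and 849 bp), KAT7 (0 and 866 bp) and HAT1 (811 and 937 bp) had more.

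Few genes of the enzymes that remove the mark and of the proteins that read it were called. Of 13 deacetylase genes 7 were compared and 0 were called, with a median log2 ratio of 0.12. Over all genes 12.6% were higher and 4.94% lower, so that 0 of 7 was near the background. HDAC2 had 1937 and 1699 bp (-0.58) and HDAC5 1032 and 2948 bp (0.96). Of 12 genes of acetyl-lysine readers 6 were compared, 1 was higher (16.7%, against 12.6% of all genes) and 0 were lower, with a median of -0.27. Among them ATAD2 had 2863 and 1873 bp (-0.99).

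PKM, which encodes PKM1 and PKM2 by alternative splicing, had 2953 acetylated bp in NC and 7848 in PKM2-KD, with a log2 ratio of 0.92 that was not called. Of 20 glycolysis genes listed, PKM among them, 15 were compared and all 15 had a ratio above 0. Their median was 0.51, against 0.08 over all genes compared, where ratios above 0 were also the more common. Of the 15, 7 were under 20 kb, the class in which the median over all genes was 0.35. Of those under the minimum, GPI (1180 and 482 bp) and ALDOC (833 and 0 bp) had less in PKM2-KD, and PFKL was at 0 in both lists. ALDOA, an aldolase, had 880 and 4336 bp (1.69) and TPI1, triosephosphate isomerase, 229 and 1977 bp (2.06). Both were called higher, which is 13.3% of those compared, against 12.6% of all genes. Of the rest, HK1, the first kinase of the pathway, had 7939 and 19898 bp (0.86), GAPDH 3383 and 7381 bp (0.65) and LDHA 1793 and 3251 bp (0.38). Among hypoxia targets 8 of 18 were compared and 0 were called, with a median of 0.19 and EPAS1 highest at 0.83. With 12.6% of all genes higher and 4.94% lower, 0 of 8 was near the background.

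The study names 9 genes whose transcripts were lowered by both of its knockdowns, a list chosen from the same cells. Of these, 7 were compared and 0 were called in either direction, with a median log2 ratio of 0.20. Over all genes 12.6% were higher and 4.94% lower, so that 0 of 7 was near the background. MATN2, a matrix protein, had 4743 and 4451 bp (-0.52), and FERMT2, which activates integrins, 5224 and 5430 bp (-0.38). CCN2, a matricellular target of YAP, had 1491 and 2372 bp (0.20), and RCN1, a calcium-binding protein of the endoplasmic reticulum, 3318 and 4364 bp (-0.05). MCAM, a melanoma cell adhesion molecule, had 2560 and 4561 bp (0.36), ADAMTSL4 2549 and 5757 bp (0.69) and VDAC1, the mitochondrial outer membrane channel, 925 and 2616 bp (0.94). IL11 (688 and 1128 bp) and CDKN1A (1119 and 862 bp) were under the minimum. H3K27ac at these genes was on both sides of 0. When every width was counted the median was 0.82, and ADAMTSL4 and MCAM (log2 ratio 1.07) were past 2-fold.

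Genes of inflammation were called more often than the background. Of 21 cytokines, chemokines and regulators listed 13 were compared, 5 were higher (38.5%, against 12.6% of all genes) and 0 lower, with a median of 0.52. LIF, a cytokine of the interleukin-6 family, had 1217 and 8058 bp (2.14). CSF3 had 2062 and 7500 bp (1.35) and CSF2 652 and 2627 bp (1.36), both growth factors of myeloid cells. NFKBIA, the feedback inhibitor of NF-kappaB, had 477 and 2020 bp (1.37). CSF1 was listed at 0 in NC, as given above. IL6, by contrast, had 1932 and 3286 bp (0.29), and TNFAIP3, a deubiquitinase that limits the same pathway, 1930 and 1578 bp (-0.67). The 13 genes were short, with a median of 4.8 kb, and 11 were under 20 kb, the class in which 22.3% of all genes were higher.

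Other lists of short genes had calls in the same direction. Of 18 splicing factor genes compared of 25, 6 were higher (33.3%, against 12.6% of all genes). Of the 18, 11 were under 20 kb, where 22.3% of all genes were higher. Among the 6 were HNRNPL (1501 and 4860 bp, 1.16), SRSF2 (574 and 2077 bp) and HNRNPH1 (388 and 1865 bp, 1.49), and U2AF2 was at 0 in NC (3107 bp in PKM2-KD). Counting regions in place of bp gave HNRNPH1 a log2 ratio of -0.16. SRSF10 (2469 and 1904 bp, -0.76) and SRSF3 (1839 and 1429 bp, -0.73) were the lowest, and the median was 0.17. Of 72 cytosolic ribosomal protein genes 50 were compared and 8 were higher, with a median of 0.39. RPS19 had 377 and 3809 bp (2.47) and RPL12 785 and 5751 bp (2.22), whereas RPL7 had 2622 and 1947 bp (-0.82). Of 41 nuclear genes of the respiratory chain 11 were compared and 1 was higher (9.09%). It was UQCRC1 of complex III, with 264 and 1932 bp (1.91). Its only NC region and its widest PKM2-KD region, chr3:48595493-48596680, lay in the flank outside the gene. That PKM2-KD region reached the promoter of COL7A1, for which it was counted as well. The 8 ribosomal genes were 16% of those compared and thus near the background of 12.6%.

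Transcription factors of the AP-1 family had 3 higher members of 14 compared (21.4%). Of the 14, 10 were under 20 kb, where 22.3% of all genes were higher. JUNB had 643 and 4039 bp (1.96), JUND 258 and 2360 bp (2.19) and BATF 314 and 1964 bp (1.77). JUN itself had 1919 and 2369 bp (-0.14). The median was 0.32. In the YAP and TEAD pathway, which drives growth and matrix genes in these cells, 1 of 17 was higher (5.88%, against 12.6% of all genes). It was ANKRD1, a target gene, with 1971 and 5637 bp, just past 2-fold, and the list's median was 0.02. Among cell cycle genes 2 of 13 were higher (15.4%, against 12.6% of all genes). CCND1, cyclin D1, had 941 bp in 2 NC regions and 6351 bp in 11 PKM2-KD regions (2.13), and E2F1 318 and 1734 bp (1.59).

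Genes that mark the identity of the cell line had similar shares. Of 7 markers of basal B breast lines, the mesenchymal class of MDA-MB-231, 6 were compared and 0 called, between -0.23 at VIM (5310 and 6144 bp) and 0.21 at CAV1 (2157 and 3456 bp), with AXL at 0.20 (10615 and 16761 bp). VIM encodes vimentin, and its promoter lay in regions of both lists that began at the same base, chr10:17226445. In the mesenchymal program 17 of 22 were compared, and S100A4, a calcium-binding protein of motile cells, was higher with 770 and 5008 bp (2.05). ZEB2 was higher with 585 and 2344 bp (1.34), a direction that regions of 500 bp or more turned to -3.15, and FN1, fibronectin, was lower with 2089 and 1322 bp, at the 2-fold limit. The 2 higher genes were 11.8% of the 17 compared. Over all genes 12.6% were higher and 4.94% lower. Among luminal and epithelial genes 12 of 25 were compared, with ERBB3 (256 and 2127 bp, 2.06) and MUC1 (662 and 2631 bp, 1.35) higher, 16.7% of those compared. GATA3, a luminal factor, had 4419 and 4210 bp (-0.50).

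Adhesion and matrix genes followed the background. Over all genes 12.6% were higher. Of 13 integrin genes compared 1 was higher (7.69%), ITGA7 (277 and 2250 bp, 2.06), with a median of -0.07. Of 14 protease and plasminogen system genes 2 were higher (14.3%), CTSB, cathepsin B (925 and 3205 bp, 1.21), and TIMP3, an inhibitor of matrix proteases (305 and 1835 bp, 1.71). Of 11 collagen genes 2 were higher (18.2%). COL13A1 had the most, with 15268 bp in 18 NC regions and 42171 bp in 47 PKM2-KD regions, just past 2-fold, and COL7A1 had 1486 and 5989 bp (1.47). COL12A1 lay at the other end, with 3736 and 2643 bp (-0.90).

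Of 20 neuronal genes listed 13 were compared, 0 were higher and 2 lower, and 11 had a ratio below 0. Over all genes 4.94% were lower, and over genes longer than 100 kb 10.9% were, so that 2 of 13 was near the background. The median was -0.59. CTNNA2, a neural alpha-catenin, had 3982 and 1279 bp (-1.93), and CDH12, a cadherin of the brain, 2890 and 1213 bp (-1.55). CNTNAP2 had 10920 and 7450 bp (-0.98), whereas ROBO1 had 972 and 1673 bp (0.29) and SNAP25 1720 and 2749 bp (0.21). Of the 13, 12 were over 100 kb long, the class in which the median over all genes was -0.16.

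Few markers of other cell types reached the minimum. Of 3 fibroblast genes 0 did, with COL1A1 highest at 0 and 1111 bp. Of 16 blood cell genes with a RefSeq entry, 8 had 0 bp in both lists and 2 were compared, PTPRC (6575 and 4747 bp, -0.89) and SPI1 (1271 and 831 bp, -0.90). Neither was called.

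Along the genome, the log2 ratio of bins was higher where genes were dense, while the bins past 2-fold were of other kinds too. Of 2886 bins of 1 Mb, 2402 were compared, with a mean of at least 2000 acetylated bp and 20 bp per Mb added to each share. PKM2-KD was higher in 30 (1.25%) and lower in 112 (4.66%), and the median log2 ratio was -0.10. This order turned with regions of 500 bp or more, at 140 higher and 58 lower, and with a −log10 q of 5 or above, at 60 and 47. The median was -0.43 in 139 bins with no protein-coding gene, -0.34 with 1 to 2 genes, -0.08 with 6 to 10 and 0.31 in 206 bins with 21 or more. Bins with 21 or more genes held 12.8% of acetylated bp in NC and 16.1% in PKM2-KD, and bins without a gene 3.09% and 3.79%. The 30 higher bins had a median of 1 gene and the 112 lower bins of 2. Gene spans with 5 kb on each side held 64.8% in NC and 67.7% in PKM2-KD, a difference of 2.9 percentage points.

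Whole chromosomes followed the same order. Chromosome 19, the richest in genes at 24.8 per Mb, held 3.18% of acetylated bp in NC and 4.3% in PKM2-KD, a ratio of 1.35. Chromosome 22 had a ratio of 1.32 and chromosome 16 of 1.22. The lowest were chromosome 6 at 0.853, chromosome 13, the poorest in genes at 2.96 per Mb, at 0.873 and chromosome 4 at 0.894. Over the 22 chromosomes Spearman's rho of log2 ratio and genes per Mb was 0.66, and 0.68 when bins without a gene were left out. The chromosomes come from the same 2 libraries and differ in base composition too, so this is a description.

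**Figure D3:**
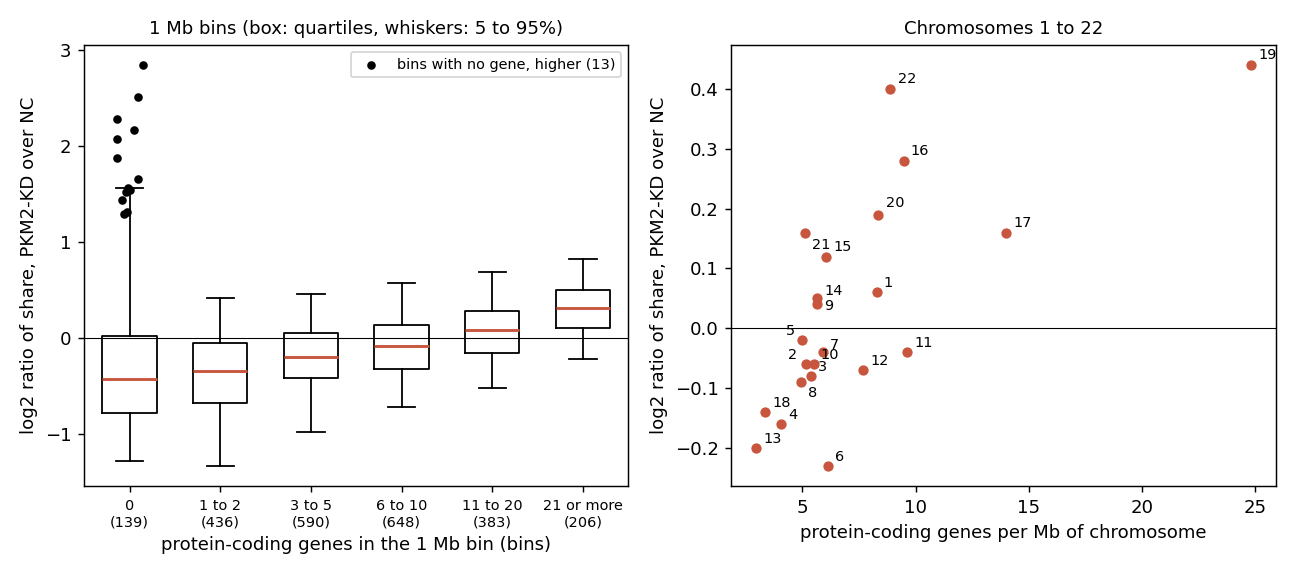
Log2 ratio of H3K27ac share, PKM2-KD over NC (y axes), by number of protein-coding genes in each of 2402 bins of 1 Mb (left; boxes show quartiles, whiskers the 5th to 95th percentiles, brackets the number of bins) and by genes per Mb of the 22 chromosomes (right, numbered). Medians run from -0.43 in bins without a gene to 0.31 in those with 21 or more, and the 13 bins drawn as black points have no gene and a higher share.

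Of the 30 higher bins, 5 had 21 or more genes, and all but the bin at 31 to 32 Mb of chromosome 16 lay within 3 Mb of a chromosome end. The first Mb of chromosome 16, with 55 genes, had 5746 bp in NC and 25080 bp in PKM2-KD (log2 ratio 1.58), with most at MPG, a DNA repair glycosylase, and NPRL3. The bin at 2 to 3 Mb of chromosome 16, with 40 genes and SRRM2 among them, had 10743 and 39424 bp (1.37). The first Mb of chromosome 5, with AHRR and TRIP13, had 16666 and 50191 bp (1.11). The first Mb of chromosome 20 had 4326 and 12682 bp (1.00), a ratio that was 0.13 with regions of every width.

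The lowest bins held few genes. The bin at 26 to 27 Mb of chromosome 3, with LRRC3B alone, had 4021 bp in 14 NC regions and 275 bp in 1 PKM2-KD region (-2.51). At 161 to 162 Mb of chromosome 4, with FSTL5, the values were 4404 and 787 bp (-2.08). At 147 to 148 Mb of chromosome 3, which holds ZIC1 and ZIC4, a pair of developmental transcription factors, they were 5323 and 1179 bp (-2.01). The other 3 of the 6 lowest had no gene, on chromosomes 5, 11 and 13, at -2.21, -2.20 and -2.19. Of the 112 lower bins 19 had no gene.

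Another 13 of the higher bins had no protein-coding gene and went against this order. They lay in or beside the centromeres of chromosomes 1, 3, 5, 6, 12, 16 and 19, where the assembly holds satellite repeats. At 122 to 123 Mb of chromosome 1 NC had 6307 bp and PKM2-KD 53071 bp (2.51), at 47 to 48 Mb of chromosome 5 the values were 10298 and 71498 bp (2.28), and at 25 to 26 Mb of chromosome 19 they were 14945 and 94804 bp (2.17). The bin at 36 to 37 Mb of chromosome 16 had 0 bp in NC and 5204 bp in PKM2-KD. Together the 13 bins held 0.526% of acetylated bp in NC, in 509 regions, and 1.76% in PKM2-KD, in 1755 regions, a ratio of 3.35. When all bins without a gene were left out, 18 bins were higher and the calls of genes hardly moved (957 higher and 369 lower).

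In the same 13 bins H3T11ph had the opposite order. The H3T11ph lists of NC and PKM2-KD were used with every region, without the width limit set for H3K27ac. They held 5.85% of their bp in these bins in NC, in 1658 regions, and 1.65% in PKM2-KD, in 539 regions, a share 3.54 times lower in PKM2-KD. The H3T11ph share was lower in 12 of the 13 bins. The exception was the chromosome 16 bin, with 273.5 and 284.1 bp per Mb. Over all bins compared, Spearman's rho of the H3K27ac and H3T11ph log2 ratios was 0.00 in size, and over the 22 chromosomes it was -0.52. H3K27ac regions in these bins averaged 317.2 bp in NC and 421.9 bp in PKM2-KD. Whether the calling of regions in repeats has a part in this was not tested.

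**Figure D4:**
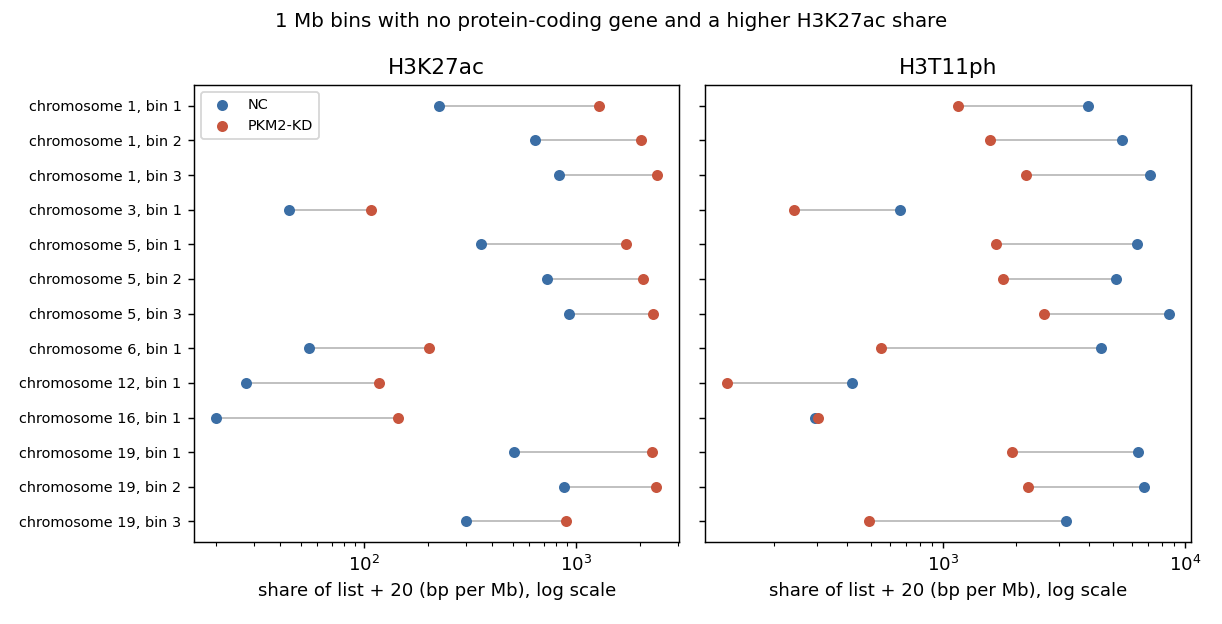
Share of 13 bins of 1 Mb without a protein-coding gene (y axis, numbered in order along each chromosome) in H3K27ac (left) and H3T11ph (right), NC in blue and PKM2-KD in red, as bp per Mb of the list with 20 added, on log scales (x axes). The H3K27ac share is higher in PKM2-KD in all 13, by which the bins were chosen, and the H3T11ph share is lower in 12.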

How the data were processed

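H3K27ac CUT&Tag libraries of NC and PKM2-KD cells, 1 each, were compared through the peak lists the authors deposited, 1 list per library. Each deposited row gives a region, its fold enrichment at the summit (a linear ratio to the local background), −log10 p, −log10 q and a score. The submitters' processing notes name cutadapt 1.18, FastQC 0.11.9, SAMtools 1.3.1, MACS2 2.1.1.20160309, DESeq2 and hg38. The aligner, duplicate handling and control are not given in the sources used here. As read totals were not used, depth was estimated from each list by finding the whole pileup height for which fold gives the deposited −log10 p. All of 6000 rows per list were matched within 0.002, and at most 0.5% after the fold was changed by 1%.

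Rows on chromosomes 1 to 22 at least 226 bp wide were kept. Acetylated bp per gene (RefSeq table, GRCh38.p14, the build of hg38) plus 5 kb, and per 1 Mb bin, were divided by the total of the list. With 1 library per group no test was run, and a 2-fold difference in share was the call. A relation across genes or bins is given as a description. Sums were tested on simulated data. The members, the 22 gene lists and the width limit were chosen with earlier results of these data known. Named were the 12 highest and 12 lowest loci, up to 5 at 0 in either list, the 8 of highest mean share, the 6 highest and 6 lowest bins, the 2 highest and 2 lowest of each list, and KAT5, PKM and the study's 9 genes. Further list members and bins were named after their values were seen. Promoter sequences came from RefSeq (15100 of 19122 genes matched). The values of 1 list member are not reported here. Chromosome X was left out, and so were NONO lists. Python 3.11.15, pandas 2.3.3, numpy 2.4.6, scipy 1.17.1, statsmodels 0.14.6 and matplotlib 3.10.9 were used. Alternatives changed the rows used, their joining, the list length, the quantity summed, flank, pseudocount, minimum, centring and bin size.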

Additional observations from a re-analysis of the deposited data

Results flagged for a closer look

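Chromosome X was outside the comparison and carried H3K27ac in both lists, which placed it here as a signal in data not otherwise used. It held 579587 acetylated bp in 1273 regions in NC and 833071 bp in 1472 regions in PKM2-KD, which are shares of 18878 and 19844 bp per Mb of the length on chromosomes 1 to 22. No control library was at hand for this value.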

How the results depend on the processing

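No paired analysis was possible because there were no replicates. The pileup height floor of 10 fragments and the removal of bins without a gene were chosen after seeing the data, and the other alternatives with earlier results of these data known. The cause of the differences was not tested except where the alternative itself sets them, as with fewer or more genes compared. Of 60 counts of genes or bins under the alternatives, 34 stayed within 1.5 times the main count.

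Genes with a higher share numbered 942, and 1763 with regions of every width, 527 with no flank, 582 with 20 bp per Mb added, 3710 with no minimum and 58 with a mean of at least 5000 bp. Genes with a lower share numbered 370, and under the same settings, except the flank, 1028, 203, 2363 and 6. They were 580 with joined rows, 672 with rows counted and 588 with bp weighted by fold. Higher genes made up 71.8% of calls, 57.2% with rows counted, 63.4% after centring on a running median and 90.6% at a mean of at least 5000 bp. The median log2 ratio ran from -0.05 with regions of 500 bp or more to 0.25 with regions of every width, against which ratios under those settings are to be read.

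Higher bins numbered 30, and 140 at 500 bp or more, 62 with bp weighted by fold, 60 at the stricter q limit (−log10 q of 5 or above), 96 and 13 with bins of 0.5 and 2 Mb and 18 without bins that lack a gene. Lower bins numbered 112, and 434 with every width, 58 at 500 bp or more, 47 at the stricter q, 170 with joined rows, 185 at equal list length, 72 with the higher pseudocount, 202 with no minimum and 48 with bins of 2 Mb. At 500 bp or more and at the stricter q the higher bins outnumbered the lower ones, the opposite of the main order.

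The acetylated length of PKM2-KD was 136.7% of NC, and 174.3% at 500 bp or more, 167.0% at the stricter q, 121.2% with joined rows, 133.4% with the height floor and 136.1% without bins that lack a gene. With every width it was reversed, at 70.1%. The difference in length within genes, 2.9 points, was above 0 throughout, at 6.88 (every width), 2.77 (500 bp), 1.85 (stricter q), 3.59 (joined), 4.16 (equal length), 2.26 (weighted), 1.98 and 2.73 (flanks of 0 and 1 kb), 3.05 (height floor) and 3.36 points (bins without a gene left out).

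Of 60 named genes with a call, 33 stayed past 2-fold in the same direction in every alternative. The ratio changed sign for 4, to -0.16 at HNRNPH1 (rows counted), -0.76 and -0.06 at KAT2A (500 bp, equal length), 0.02 at SGCD (stricter q) and -3.15 at ZEB2 (500 bp). Regions near the height at which a list ends could not be compared at this depth.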
